A study of Homo sapiens with 12 samples.

Results

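The genes described here are the ligands and receptors of axon guidance: ephrins and Eph receptors, semaphorins with their plexin and neuropilin receptors, SLIT proteins with ROBO receptors, and netrins with DCC, NEO1 and the UNC5 receptors. They were chosen by symbol alone (beginning with SEMA, PLXN, ROBO, SLIT and a number, EPHA, EPHB, EFNA, EFNB or UNC5, or equal to NRP1, NRP2, NTN1, NTN3, NTN4, DCC or NEO1, with SLITRK genes left out), and 70 of the 20046 genes on the array met that rule. UNC50 and UNC5CL met it by spelling only. UNC50 is a membrane protein of the secretory pathway and UNC5CL is an intracellular relative of the UNC5 receptors, so both are counted among the 70 but kept apart from the netrin receptors.

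The 12 Illumina bead arrays were made from human embryonic stem cells (hESCs) grown on mouse embryonic fibroblast feeders. NTU1, an hESC line, gave 4 arrays of MEG3-ON sublines (numbered 1 to 4) and 5 arrays of MEG3-OFF sublines (numbered 5 to 9). The paper associates MEG3-ON cells as a group with a better capacity for neural differentiation. It does not state that each arrayed subline was differentiated. MEG3 is a maternally expressed long non-coding RNA of the imprinted DLK1-DIO3 locus, and the sublines were sorted by their MEG3 level rather than made by editing the gene. The paper reports that this locus became hypermethylated in NTU1 cells kept long in culture. It does not give the passage of the arrayed sublines, and the part of passage in the differences was not tested. H9, an unrelated hESC line labelled MEG3-OFF, gave 2 arrays, and 1 embryoid body (EB), a differentiating aggregate derived from MEG3-ON hESCs whose age is not given for this array, gave 1. The NTU1 arrays are of separate sublines of 1 line, and whether the H9 arrays came from separate cultures is not stated, so each p-value measures only the spread between these sublines and arrays. All arrays lay on 1 chip with each group in neighboring positions, so that an effect of position cannot be told apart from one of group. MEG3 itself had log2 signals of 13.15 to 14.12 on the MEG3-ON arrays, 4.97 to 6.30 on the MEG3-OFF arrays (detected on 1 of 5), 5.10 and 5.15 on the H9 arrays (not detected) and 13.76 in the EB. All 10 pluripotency markers measured were detected on every hESC array. In H9 cells 3 of the 10 were called lower than in MEG3-OFF cells and 0 higher (limma), beside 18.2% and 13.2% of all genes tested. NANOG had mean log2 signals of 9.98 in MEG3-ON, 10.75 in MEG3-OFF and 7.77 in H9 cells. In the EB 9 of the 10 were detected, NANOG being the exception. Their signals were reduced there, 7 of the 10 being over 2-fold lower than the MEG3-ON mean, with a median log2 difference of -2.70. Between the sublines NANOG was the 1 pluripotency marker called, higher in MEG3-OFF cells by 0.77 (adjusted p = 0.0204, limma). Of all genes tested between the sublines, 3.58% were called. Of 5 mesenchymal markers tested 3 were lower in sign, and ACTA2 alone was called, at -0.98 (adjusted p = 0.0202, limma). THY1 at 0.35 and COL1A1 at 0.22 were higher in sign and not called. The part of any of these markers in the guidance results was not tested.

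Guidance cues steer a growing axon by attracting or repelling its tip. Ephrins are held on the cell surface and bind Eph receptor tyrosine kinases on a neighboring cell, with signals passing in both directions. Semaphorins, secreted or membrane-bound, act through plexins, and most of the secreted class require neuropilins as co-receptors. SLIT proteins repel through ROBO receptors, and netrins attract through DCC or NEO1 and repel through UNC5 receptors. The same families set tissue boundaries in the early embryo and pattern blood vessels, so their transcripts are not limited to neurons.

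The promoters of the genes that separated the sublines by the largest amount are shown first. EPHA4 and EFNB2 encode a receptor and one of its ligands, since EPHA4 binds B-class as well as A-class ephrins, and both were lower in MEG3-OFF and H9 cells, and higher in the EB, than in MEG3-ON cells. RefSeq (GRCh38.p14) held promoter entries for 60 of the 70 genes. The 250 bases before each annotated start are printed 5′ to 3′ on the gene's strand, with GGGCGG, the GC box, or its complement CCGCCC in capitals.
EPHA4, first start, chr2:221574203-221574452, minus strand: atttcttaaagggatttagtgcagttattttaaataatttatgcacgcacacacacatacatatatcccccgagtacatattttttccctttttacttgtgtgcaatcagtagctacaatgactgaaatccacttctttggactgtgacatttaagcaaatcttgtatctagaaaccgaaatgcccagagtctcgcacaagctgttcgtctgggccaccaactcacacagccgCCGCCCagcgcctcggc
EPHA4, second start, chr2:221572305-221572554, minus strand: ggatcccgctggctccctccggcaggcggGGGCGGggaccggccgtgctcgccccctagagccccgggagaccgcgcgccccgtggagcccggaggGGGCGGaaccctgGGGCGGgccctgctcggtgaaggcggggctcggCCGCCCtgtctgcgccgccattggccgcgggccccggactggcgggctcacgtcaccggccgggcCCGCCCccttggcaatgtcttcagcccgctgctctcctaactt
EFNB2, chr13:106535663-106535912, minus strand: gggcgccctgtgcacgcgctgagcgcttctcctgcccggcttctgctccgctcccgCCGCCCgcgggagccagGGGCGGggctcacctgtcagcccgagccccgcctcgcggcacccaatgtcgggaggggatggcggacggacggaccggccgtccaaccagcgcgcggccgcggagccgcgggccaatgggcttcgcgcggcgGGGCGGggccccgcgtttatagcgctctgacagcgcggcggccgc
The first EPHA4 window held 9 CpG dinucleotides, a GC content of 43.2% and 1 GC box. The second held 30 CpG dinucleotides, a GC content of 78.0% and 5 GC boxes, and the EFNB2 window held 40, 78.4% and 3. Among 35116 promoter windows of the same 250 bases, the median was 11 CpG dinucleotides and a GC content of 58.0%, and 42.6% held a GC box on either strand. CCAAT or its complement ATTGG occurred 2 times before EFNB2, 1 time in the second EPHA4 window and 0 times in the first, and 32.0% of all windows held it.

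Each gene was represented by its brightest probe. By that probe 52 of the 70 genes were detected (detection p under 0.01) on at least 1 array and 29 on all 11 hESC arrays. Of all 20046 genes, 12677 and 9310 were so detected. Each array detected between 41 and 44 of the genes in MEG3-ON cells, between 39 and 42 in MEG3-OFF cells and 37 on either H9 array, and 50 were detected in the EB. Of all probes, 16864 to 18390 were detected per MEG3-ON array and 16878 to 17727 per MEG3-OFF array. The H9 arrays detected 17567 and 17946 probes and the EB 18796, the most of any array. The 18 genes whose chosen probe was at background on every array were the netrin receptor DCC, the netrin NTN4, the ephrins EFNA3 and EFNA5, the receptors EPHA3, EPHA5, EPHA6 and EPHA7, the plexins PLXNA2, PLXNB3 and PLXNC1, ROBO2, ROBO4, SLIT1, and SEMA3D, SEMA3G, SEMA6D and SEMA7A. The other PLXNA2 probe was detected in the EB alone, at 5.89, which leaves 17 genes with no probe detected. EFNA2, EPHB3, NTN1, SEMA3C and SLIT3 were detected in the EB alone.

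The brightest guidance probes over the hESC arrays belonged to SEMA6A, UNC50, EPHA1, SEMA4D, EPHB4, SEMA3E, NEO1, PLXNB2, UNC5A and EFNB3. Brightness of different probes does not give the order of their transcripts. SEMA6A, a transmembrane semaphorin, had a mean log2 signal of 12.06 in MEG3-ON, 12.20 in MEG3-OFF and 11.49 in H9 cells. SEMA4D, a ligand of PLXNB1, had means of 10.78, 10.77 and 9.99, and NEO1, a receptor for netrins and for the RGM proteins, had means of 9.83, 9.64 and 9.23. For these genes the NTU1 groups lay close together and H9 lay lower.

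**Figure D1:**
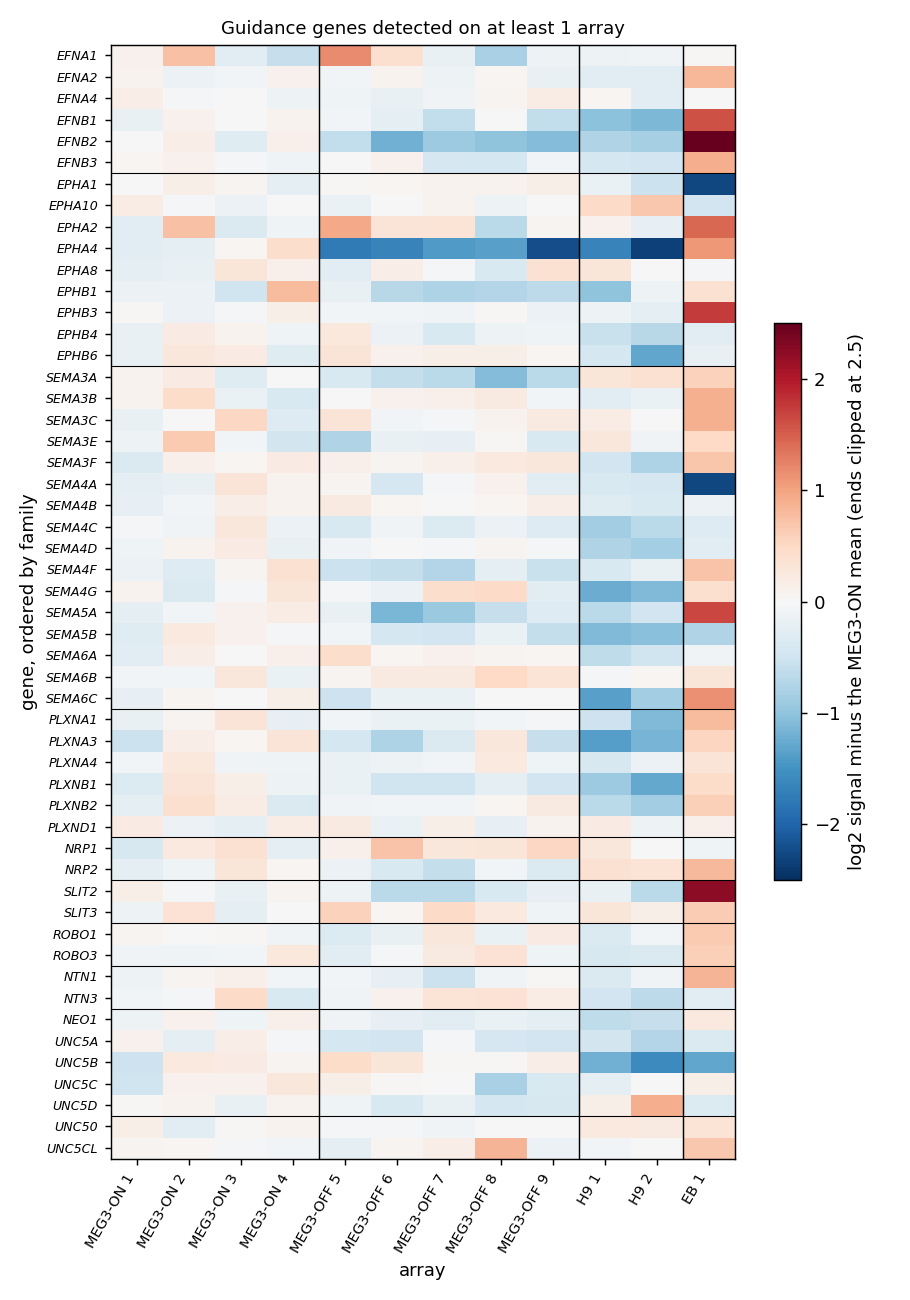
Log2 signal of each of the 52 guidance genes detected on at least 1 array (rows, ordered by family) on each of the 12 arrays (columns), less the MEG3-ON mean, from blue (lower) to red (higher). EPHA4 and EFNB2 were lower on every MEG3-OFF and H9 array. In the EB column EFNB2 lies at 2.60 (past the end of the color scale) and EPHA1 at -2.28.

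MEG3-OFF sublines had lower signals of EPHA4, EFNB2 and SEMA3A than MEG3-ON sublines. In the comparison of the sublines 43 guidance genes could be tested, and these 3 (6.98%) passed an adjusted p of 0.05 (limma, Benjamini-Hochberg over all 10775 genes tested). No guidance gene was called higher, with 1 at an unadjusted p under 0.05. Of all genes tested, 3.58% were called, 1.74% as lower and 1.85% as higher in MEG3-OFF cells. The median difference of the 43 genes was -0.05 on the log2 scale, beside 0.02 over all genes tested. In these bulk samples, fewer cells of a type and less RNA per cell cannot be told apart.

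EPHA4, an Eph receptor that mediates repulsion in motor and cortical axons of the mouse, had log2 signals of 8.79, 8.81, 9.10 and 9.49 on the MEG3-ON arrays and 7.28, 7.37, 7.63, 7.69 and 6.84 on the MEG3-OFF arrays. The groups did not overlap, and the lowest MEG3-ON array lay more than 1 log2 unit above the highest MEG3-OFF array. The difference was -1.68 ± 0.19 (SE), a 3.21-fold lower signal, with an adjusted p of 0.000278 (limma). The H9 arrays, at 7.37 and 6.71, lay within or below the MEG3-OFF range, and the EB, at 10.14, lay above every hESC array.

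EFNB2, a transmembrane ephrin that also marks arterial endothelium, had log2 signals of 8.80, 8.96, 8.49 and 8.93 in MEG3-ON and 8.18, 7.60, 7.89, 7.78 and 7.72 in MEG3-OFF cells. Again no MEG3-OFF array reached the lowest MEG3-ON array. The difference was -0.96 ± 0.14 (SE), a 1.95-fold lower signal, with an adjusted p of 0.00246 (limma). H9 lay with the MEG3-OFF arrays at 8.05 and 7.97, and the EB was the highest array at 11.39. Of 10 endothelial markers, PECAM1, CDH5, TIE1, ESAM and ERG were not detected on any array of any group. EGFL7, SOX18 and TEK were detected on at least 3 of 4 MEG3-ON and on 5 of 5 MEG3-OFF arrays and could be tested, and 0 were called (limma). EGFL7 and SOX18, at 0.56 and 0.92, had an unadjusted p under 0.05 and were higher in sign in MEG3-OFF cells, and TEK was at 0.00. The mean of the list ranged from 5.19 to 5.58 on the MEG3-ON and from 5.45 to 5.80 on the MEG3-OFF arrays, and its part in the EFNB2 difference was not tested.

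SEMA3A, a secreted repellent that acts through NRP1 and A-class plexins, had log2 signals of 7.30, 7.41, 6.91 and 7.22 in MEG3-ON and 6.82, 6.62, 6.54, 6.12 and 6.53 in MEG3-OFF cells. The groups did not overlap, but the gap between the nearest arrays was small. The difference was -0.68 ± 0.15 (SE), a 1.61-fold lower signal, with an adjusted p of 0.0252 (limma). This call was lost, with adjusted p-values from 0.0505 to 0.0813, when any of MEG3-ON 1, 2 or 4 or MEG3-OFF 6, 7 or 9 was left out, while the difference stayed between -0.71 and -0.62. Without background correction it was -0.44. Unlike for EPHA4 and EFNB2, the H9 arrays, at 7.51 and 7.60, lay above every NTU1 array.

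EPHA4, EFNB2 and SEMA3A were also the 3 of the 43 genes tested whose MEG3-ON and MEG3-OFF arrays did not overlap, and the same held for 8.25% of all genes tested. With the methods' t-test, which does not share the spread among genes, and Benjamini-Hochberg adjustment, 0 of the 43 passed, the smallest adjusted p being 0.0524. The limits those methods set on this test were an unadjusted p under 0.05 and more than 1.5-fold. At these limits EFNB2, EPHA4, SEMA3A and SEMA5A passed as lower, 9.30% of the 43, and 0 as higher. Of all genes tested, 2.13% passed as lower and 1.83% as higher. The paper also required a false discovery rate under 0.05 in a significance analysis of microarrays, and kept the genes that passed both. That further criterion was not applied, so whether these genes meet the paper's full rule was not tested.

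**Figure D2:**
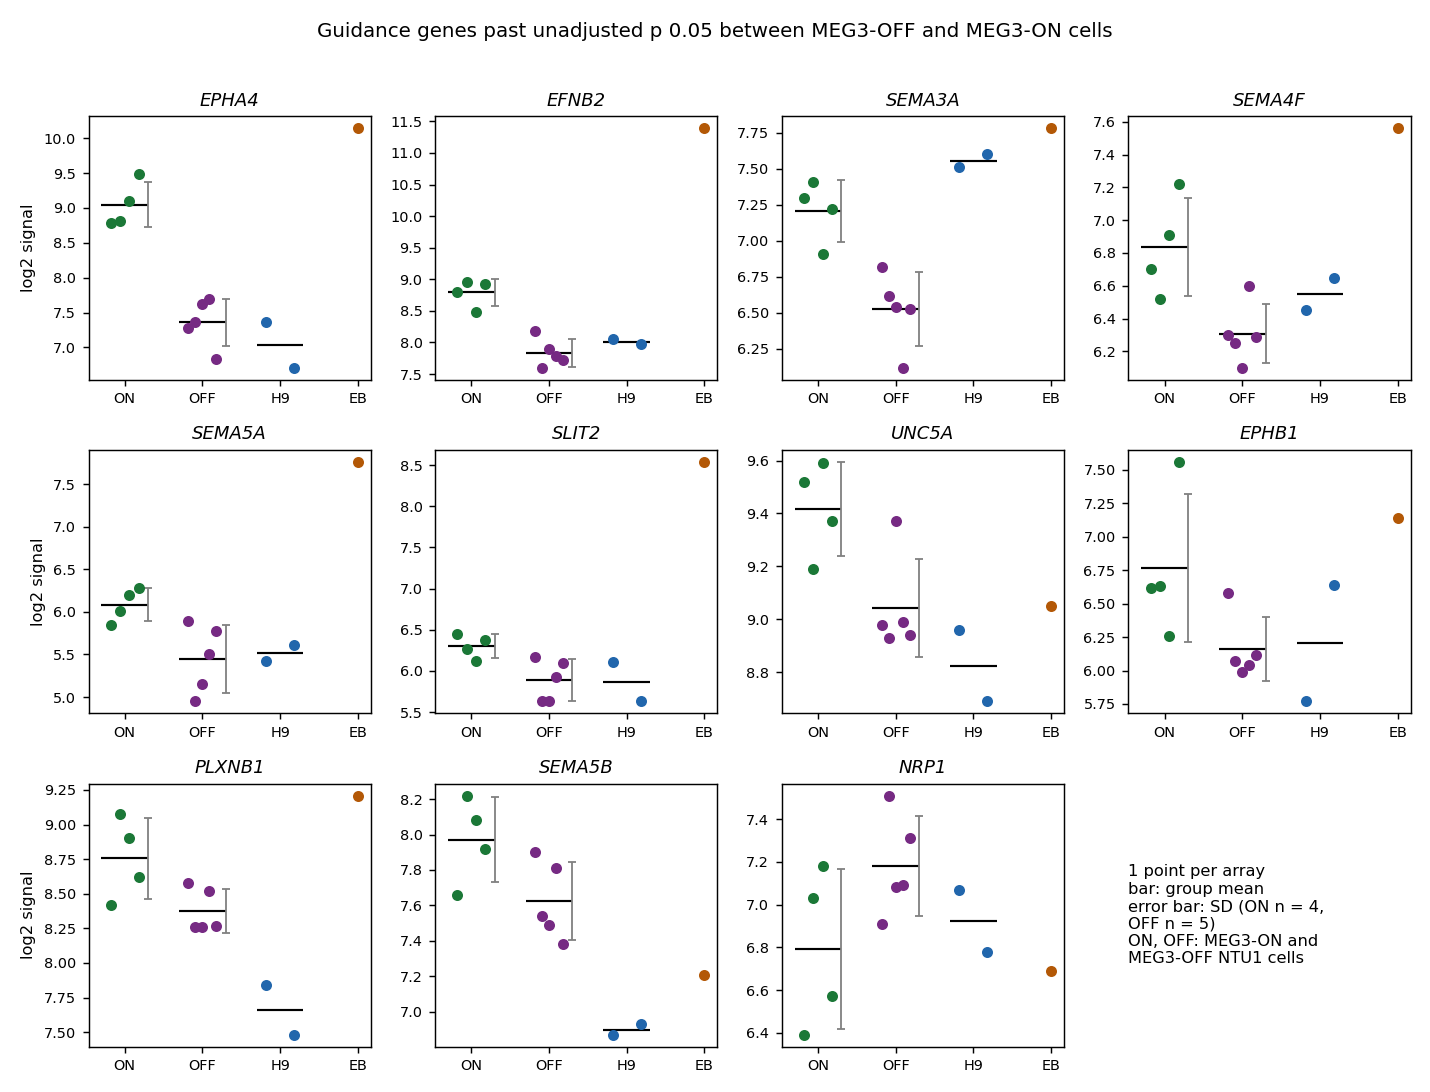
Log2 signal of 11 guidance genes on each array (1 point per array) in MEG3-ON (n = 4) and MEG3-OFF (n = 5) NTU1 cells, H9 cells (n = 2) and the EB (n = 1), with the group mean as a bar and the SD as an error bar for the NTU1 groups. EPHA4, EFNB2 and SEMA3A show MEG3-OFF points wholly below the MEG3-ON points, and the other 8 panels overlap.

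The other 8 genes with an unadjusted p under 0.05 did not pass the adjusted threshold. Including the 3 called, 11 genes (25.6% of the 43) had such a p, 10 of them lower and 1 higher in MEG3-OFF cells. Of all genes tested 22.3% had one, 1188 of them lower and 1216 higher. Among the ligands, SEMA4F, a transmembrane semaphorin, differed by -0.53 ± 0.15 (SE) with an adjusted p of 0.068. Its second probe, detected on 3 of the 9 NTU1 arrays, had the opposite sign at 0.29, with means of 5.46 in MEG3-ON and 5.76 in MEG3-OFF cells. SEMA5A, a transmembrane semaphorin with thrombospondin repeats, differed by -0.63 ± 0.19 with an adjusted p of 0.0791, and its probe rose above background on 4 of 4 MEG3-ON but 1 of 5 MEG3-OFF arrays. SEMA5B, its closest relative, differed by -0.34 ± 0.15 with an adjusted p of 0.188. SLIT2, a ligand of ROBO receptors, differed by -0.41 ± 0.14 with an adjusted p of 0.109.

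Among the receptors, EPHB1, which binds B-class ephrins, had log2 signals of 6.62, 6.63, 6.26 and 7.56 in MEG3-ON and 6.58, 6.07, 5.99, 6.04 and 6.12 in MEG3-OFF cells. MEG3-ON 4 stood above all other arrays of both groups, and MEG3-OFF 5 lay within the MEG3-ON range. The difference was -0.61 ± 0.22 (SE) with an adjusted p of 0.135 (limma), and it fell to -0.34 (adjusted p = 0.313) without MEG3-ON 4. UNC5A, a netrin receptor, differed by -0.37 ± 0.13 with an adjusted p of 0.114, and PLXNB1, the receptor of SEMA4D, by -0.38 ± 0.14 with an adjusted p of 0.148. NRP1, co-receptor of SEMA3A and of VEGF, was the exception in sign at 0.39 ± 0.17 with an adjusted p of 0.215, with MEG3-ON arrays from 6.39 to 7.18 and MEG3-OFF arrays from 6.91 to 7.51.

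For the 32 genes tested with an unadjusted p of 0.05 or more, differences lay between -0.37 and 0.27, and the 95% interval of 22 of them stayed within 0.5 log2 units of 0. SEMA4D differed by -0.01 ± 0.11 (SE), EPHA1 by 0.08 ± 0.10 and ROBO1, a SLIT receptor detected on every array, by -0.04 ± 0.14. By family, 1 of 5 ephrins tested, 1 of 8 Eph receptors and 1 of 14 semaphorins were called, and 0 of 6 plexins, 0 of 2 ROBO receptors, and 0 of 4 netrin receptors. NRP1, SLIT2, NTN3 and UNC50, each the one gene of its kind that could be tested, were not called. None of the genes left out of this test was detected on more than 3 of the 9 NTU1 arrays.

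**Figure D3:**
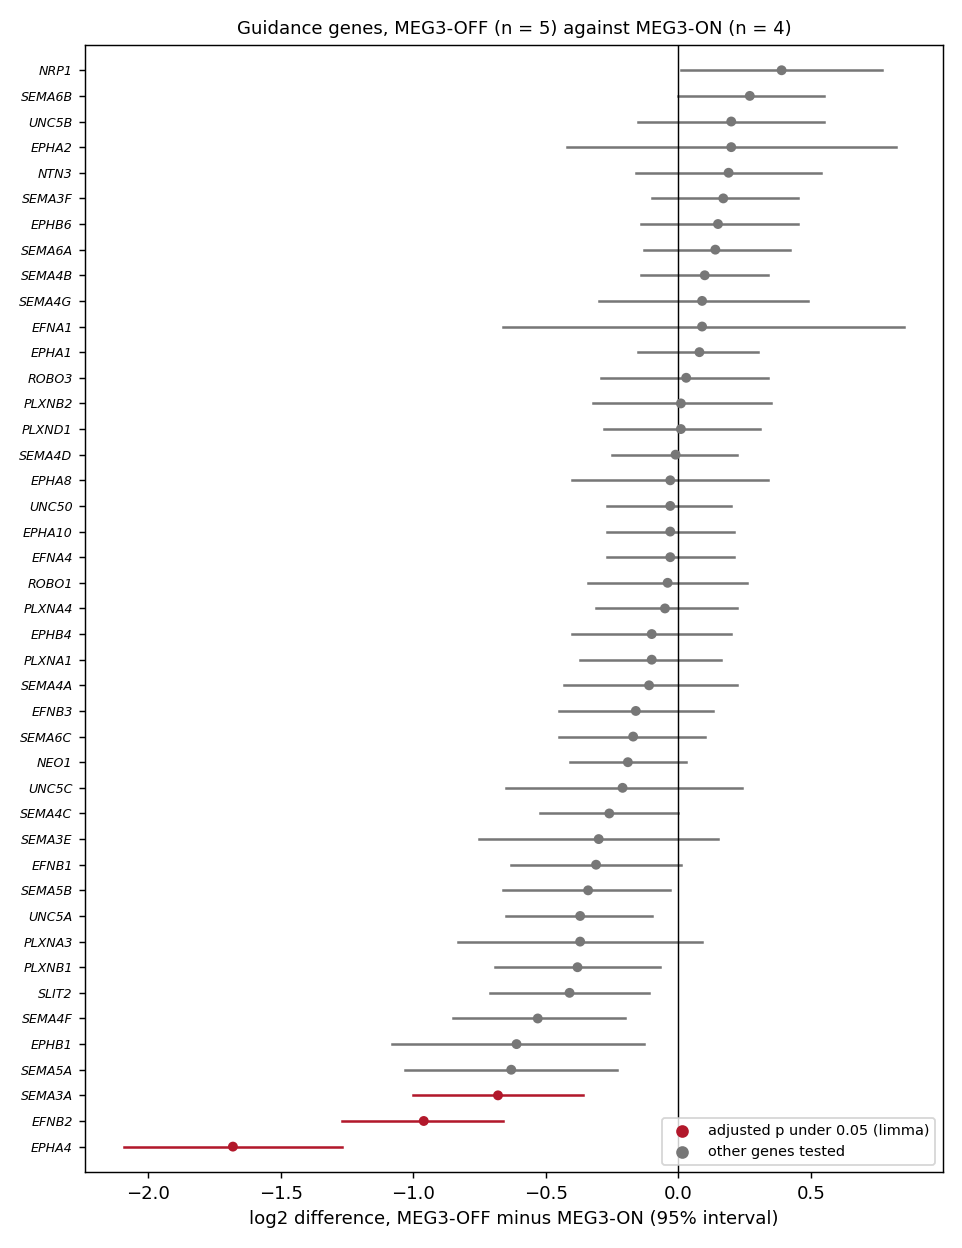
Difference of the log2 signal between MEG3-OFF (n = 5) and MEG3-ON (n = 4) cells for the 43 guidance genes tested, with 95% intervals from limma; genes with an adjusted p under 0.05 are in red. EPHA4 lies at -1.68, EFNB2 at -0.96 and SEMA3A at -0.68, and NRP1 at 0.39 is the highest.

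EFNA1 and EPHA2, an ephrin and its preferred receptor, varied widely among the sublines of a group. EFNA1 had log2 signals of 8.14, 8.78, 7.78 and 7.46 in MEG3-ON and 9.22, 8.45, 7.86, 7.22 and 7.92 in MEG3-OFF cells. EPHA2 had 6.14, 7.14, 6.06 and 6.31 in MEG3-ON and 7.35, 6.73, 6.76, 5.74 and 6.49 in MEG3-OFF cells. For both genes MEG3-OFF 5 was the highest and MEG3-OFF 8 the lowest NTU1 array, and MEG3-ON 2 was the highest of its group. The SDs within MEG3-ON and MEG3-OFF were 0.57 and 0.75 for EFNA1 and 0.50 and 0.58 for EPHA2. The differences between the groups, 0.09 ± 0.35 (SE) and 0.20 ± 0.29, were smaller than these SDs, with 95% intervals of -0.66 to 0.85 and -0.42 to 0.82.

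The array carries more than 1 probe for 27 of the 70 genes, but for 2 of them alone was a further probe detected on at least 4 NTU1 arrays. For EFNA4, an ephrin, the chosen probe differed by -0.03 between MEG3-OFF and MEG3-ON and the other by -0.18. For UNC5B, a netrin receptor, the values were 0.20 and 0.42. EPHA4, EFNB2 and SEMA3A each have 1 probe, so no second probe bears on their differences.

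Among the other guidance cues, receptors and adhesion molecules (38 genes on the array), 20 could be tested between the sublines, of which 4 were called lower and 1 higher in MEG3-OFF cells. The median difference was -0.17, beside 0.02 over all genes tested, of which 1.74% were called lower and 1.85% higher. FLRT3, a transmembrane protein that binds UNC5 receptors, had a mean of 7.65 ± 0.45 (SD, n = 4) in MEG3-ON and 5.69 ± 0.34 (SD, n = 5) in MEG3-OFF cells, a difference of -1.95 with an adjusted p of 0.000215 (limma), its probe being above background on 2 of 5 MEG3-OFF arrays. TENM4, a teneurin, differed by -0.96 (adjusted p = 0.000783, limma), FZD3, a frizzled receptor required for axon tracts in the mouse, by -0.81 (adjusted p = 0.0101) and NRCAM, an adhesion molecule of the L1 family, by -0.74 (adjusted p = 0.0392). CXCL12, a chemokine that also guides migrating neurons, was higher in MEG3-OFF cells by 0.76 (adjusted p = 0.0204, limma). Of the intracellular effectors of guidance receptors (50 genes on the array), 39 were tested and 1 was called, beside 3.58% of all genes tested. The gene called was SRGAP3, an intracellular protein of SLIT and ROBO signaling, at -0.48 (adjusted p = 0.044, limma). Both lists were chosen with earlier results of these data known.

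Some markers of neural progenitors differed between the groups. Of 10 on the array, 7 were tested, 5 were lower in sign and 4 were called lower in MEG3-OFF cells, namely PAX6, SIX3, LHX2 and FABP7. Of all genes tested 1.74% were called lower, and the list was chosen with earlier results of these data known. HES5 at 0.40 (adjusted p = 0.573, limma) and DLL1 at 0.31 (adjusted p = 0.520) were higher in sign. PAX6 and SIX3 were detected on 4 of 4 MEG3-ON and 0 of 5 MEG3-OFF arrays, so they entered the test through MEG3-ON cells alone. The mean of the list ranged from 6.22 to 6.71 on the MEG3-ON and from 5.43 to 6.06 on the MEG3-OFF arrays. SOX1, POU3F2 and ZIC1 were at background on all 9. Of 11 neuronal markers, 9 were tested and 0 were called, with 2 at an unadjusted p under 0.05, both lower. Of all genes tested, 22.3% had such a p. The part of these cells in the differences of EPHA4, EFNB2 and SEMA3A was not tested.

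H9 cells had lower signals of many guidance genes than MEG3-OFF NTU1 cells, although both carry the label MEG3-OFF. Of 46 guidance genes tested in a fit of 11 arrays, 19 (41.3%) were called lower and 4 (8.70%) higher in H9, beside 18.2% and 13.2% of the 11583 genes tested. The median difference was -0.29, beside -0.07 over all genes tested. The comparison is between cell lines, with 2 H9 arrays.

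The gene with the lowest value was UNC5B, a netrin receptor also known for its part in vessel branching. Its log2 signals were 5.95 and 5.56 in H9, 7.61, 7.45, 7.18, 7.17 and 7.31 in MEG3-OFF and 6.63, 7.39, 7.36 and 7.22 in MEG3-ON cells. Both H9 arrays lay below all NTU1 arrays, and 1 of them was above background. The difference between H9 and MEG3-OFF was -1.59 ± 0.21 (SE), 3.00-fold, with an adjusted p of 0.000428 (limma), and the second UNC5B probe gave -1.21. Without background correction the difference was -0.93, and of the 16 genes named with values between H9 and MEG3-OFF cells, 12 had a difference more than 1.5 times smaller in that setting.

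The semaphorins made up 8 of the 19 genes called lower, of 15 tested. SEMA4D had log2 signals of 10.04 and 9.94 in H9 and 10.69 to 10.86 in MEG3-OFF cells, a difference of -0.78 ± 0.14 (SE) with an adjusted p of 0.00207 (limma). SEMA6C, a transmembrane semaphorin detected on 1 of 2 H9 arrays, differed by -0.93 ± 0.18 (-0.50 without background correction), SEMA3F, the secreted ligand of NRP2, by -0.80 ± 0.16, and SEMA5B by -0.72 ± 0.18. SEMA4G, another transmembrane semaphorin, was not detected in H9 and on 3 of 5 MEG3-OFF arrays, with means of 4.72 and 5.98. Its signal was at least 1.14-fold lower in H9 (adjusted p = 0.00229, limma), a bound set by the lowest signal detected on each array.

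Plexins, the semaphorin receptors, were called lower in 4 of 6 cases. PLXNB1 differed by -0.71 ± 0.18 (SE) with an adjusted p of 0.0116 (limma), so that the ligand SEMA4D and this receptor were both lower in H9. PLXNB2 differed by -0.79 ± 0.19. PLXNA3, detected on 5 of 5 MEG3-OFF arrays and not in H9, was at least 1.33-fold lower (means of 5.30 and 6.19, adjusted p = 0.0195).

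In the ephrin system, EPHB6, an Eph receptor without kinase activity, had signals of 6.44 and 5.58 in H9 and 6.91 to 7.20 in MEG3-OFF cells, a difference of -1.02 ± 0.21 (SE) with an adjusted p of 0.00484 (limma). The H9 arrays, of which 1 was above background, differed from each other by more than the whole spread of the MEG3-OFF arrays. Without background correction the difference was -0.58. EFNB1, not detected in H9 and on 3 of 5 MEG3-OFF arrays, was at least 1.17-fold lower (means of 5.25 and 6.01, adjusted p = 0.00832). NTN3, a netrin, differed by -0.75 ± 0.20 with an adjusted p of 0.0131. The remaining genes called lower were SEMA6A, PLXNA1, EPHB4, SEMA4C, SEMA4B, EPHA1 and NEO1, with differences between -0.71 and -0.41.

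Higher in H9 were SEMA3A, UNC5D, NRP2 and EPHA10. SEMA3A differed from MEG3-OFF NTU1 cells by 1.03 ± 0.18 (SE), 2.05-fold, with an adjusted p of 0.00216 (limma), so the one guidance gene that fell in MEG3-OFF sublines and differed between the lines was higher in H9. EPHA10, the other Eph receptor without kinase activity, was at 6.98 and 7.16 in H9 and at 6.33 to 6.59 in MEG3-OFF cells, a difference of 0.61 ± 0.14 with an adjusted p of 0.00661. NRP2, the co-receptor of SEMA3F, and UNC5D, a netrin receptor, were not detected on any MEG3-OFF array and were detected on both H9 arrays, so they entered the test through H9 and, for UNC5D, MEG3-ON cells. NRP2, at least 1.01-fold higher (means of 5.86 and 5.18), was above background on no hESC array but those of H9. It therefore entered the test through H9 alone, and 3 genes were called higher without it. UNC5D was at least 1.42-fold higher (means of 6.35 and 5.52, adjusted p = 0.00642).

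EPHA4 and EFNB2 were not among the genes called between H9 and MEG3-OFF cells. EPHA4 differed by -0.33, with a 95% interval from -0.87 to 0.22, and EFNB2 by 0.18, with an interval from -0.20 to 0.55. Both H9 arrays lay below all 9 NTU1 arrays for 19 (41.3%) of the 46 genes and above all 9 for 5 (10.9%), beside 18.4% and 13.8% of all genes tested. For these genes the MEG3-ON arrays therefore lay on the same side of H9 as the MEG3-OFF arrays.

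The number of calls rested on H9 2. Without that array 4 guidance genes were called lower (SEMA4D, SEMA4G, SEMA6C and UNC5B) and 1 higher (SEMA3A), and the share of all genes called lower fell from 18.2% to 2.98%. Most differences kept their size, such as SEMA5B at -0.75, EFNB1 at -0.71 and PLXNB2 at -0.70, while EPHB6 moved to -0.59 and UNC5D to 0.44. Without H9 1, 14 were called lower and 3 higher. The lone H9 array was then assumed to vary like the NTU1 groups.

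**Figure D4:**
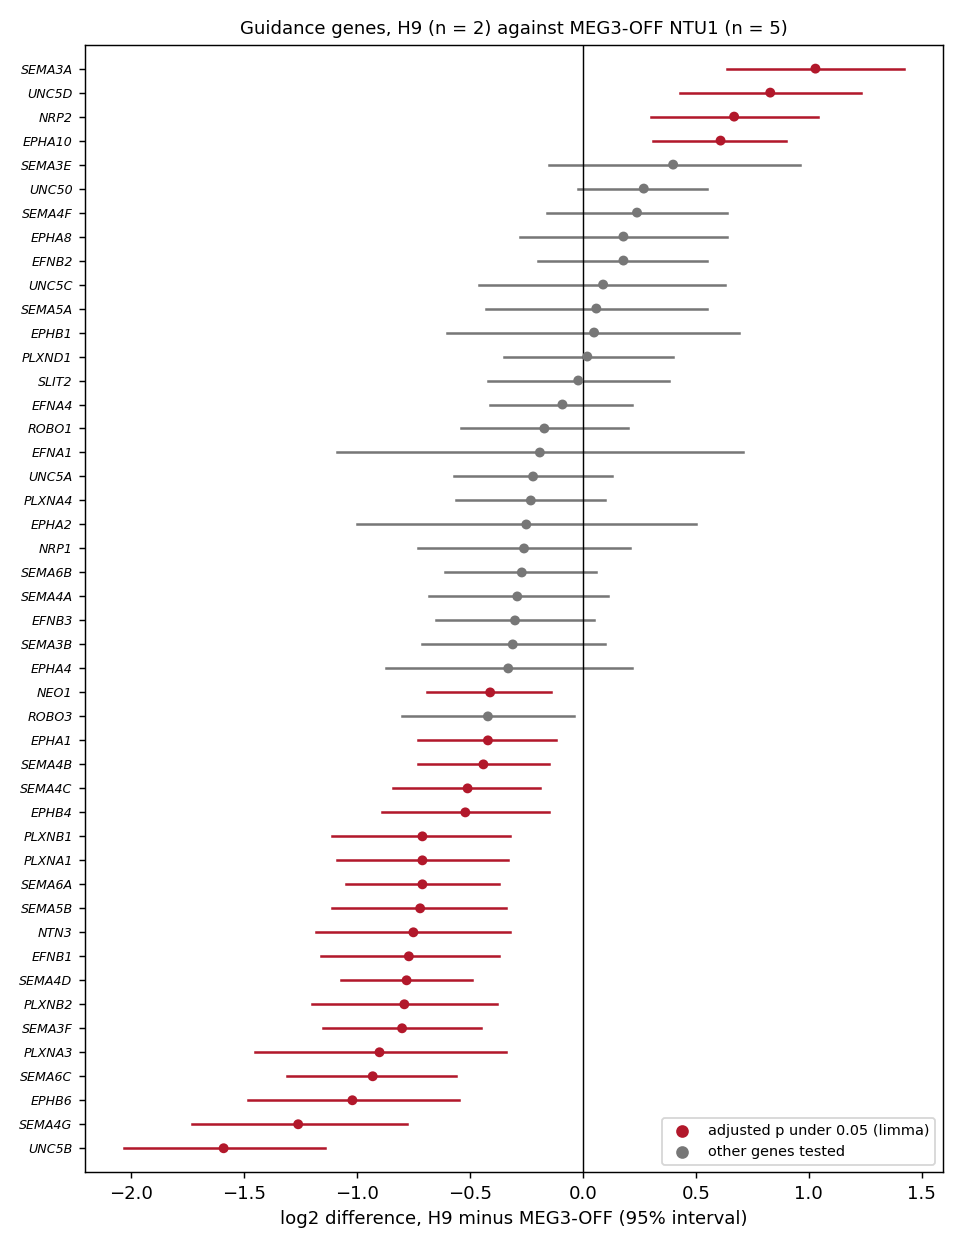
Difference of the log2 signal between H9 (n = 2) and MEG3-OFF NTU1 cells (n = 5) for the 46 guidance genes tested, with 95% intervals from limma; genes with an adjusted p under 0.05 are in red. The red points below 0 run from UNC5B at -1.59 to NEO1 at -0.41, and those above 0 are SEMA3A, UNC5D, NRP2 and EPHA10.

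In the EB, 8 guidance genes were over 2-fold higher than the MEG3-ON mean and 3 over 2-fold lower. These are 15.4% and 5.77% of the 52 genes considered (above background in the EB, or on 2 or more of the MEG3-ON arrays), beside 9.09% and 7.75% of all 11763 genes considered. With 1 EB array no test was possible, and the range of the 4 MEG3-ON arrays is given in its place. Of the 8, EPHB3 was considered through its EB signal alone and is at least 1.62-fold higher by its bound, which leaves 7. The median difference of the 52 genes was 0.43, beside 0.04 over all genes.

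EFNB2 was at 11.39 in the EB and between 8.49 and 8.96 on the MEG3-ON arrays, 6.05-fold higher on the mean. Its relative EFNB1 was at 7.91 against 6.14 to 6.43, 3.01-fold higher. Of the receptors, EPHA4 was 2.13-fold higher at 10.14 against 8.79 to 9.49, and EPHA2 2.70-fold higher at 7.85 against 6.06 to 7.14. EPHB3, a receptor of B-class ephrins at background on all 11 hESC arrays, was detected at 6.53, at least 1.62-fold higher. These EB values lay above the whole MEG3-ON range.

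SLIT2 was at 8.54 in the EB against 6.12 to 6.45, 4.70-fold higher, while the SLIT receptors ROBO1 and ROBO3 differed by 0.65 and 0.60 on the log2 scale. SEMA5A was 3.20-fold higher (7.76 against 5.85 to 6.28), and its second probe, at background on all 11 hESC arrays, was detected at 6.89. SEMA6C was 2.19-fold higher (8.01 against 6.66 to 7.02).

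EPHA1, the first Eph receptor described, was at 8.51 in the EB against 10.57 to 10.93, 4.85-fold lower. SEMA4A, a transmembrane semaphorin, was at 5.51 and not detected in the EB against 7.56 to 8.11, at least 4.43-fold lower. UNC5B was 2.44-fold lower (5.86 against 6.63 to 7.39), a difference that was -0.75 and so under 2-fold without background correction, and its second probe was at 5.93 against a MEG3-ON mean of 6.49. All 3 lay below every MEG3-ON array. Markers of other cell types were detected in the EB. Of the neural progenitor markers, 8 of 10 were detected, 8 of them over 2-fold higher than in MEG3-ON cells. Of the mesenchymal markers, 9 of 11 were detected, 6 of them over 2-fold higher. Detected too were 5 of 8 endoderm, 3 of 8 early mesoderm and 10 of 11 neuronal markers. Of these, 5, 2 and 5 were over 2-fold higher, and 9.09% of all genes considered were so. On 2 or more MEG3-ON arrays, 1 endoderm, 5 mesenchymal, 7 progenitor, 3 early mesoderm and 9 neuronal markers were detected. Any further marker of these lists was considered through its EB signal alone. Of 6 neural crest markers considered, 2 were over 2-fold higher and 2 lower. Of 4 endothelial markers considered, 1 was over 2-fold higher and 1 lower. The mean of the progenitor list was 8.94 in the EB, and the part of any of these cells in the guidance values was not tested.

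**Figure D5:**
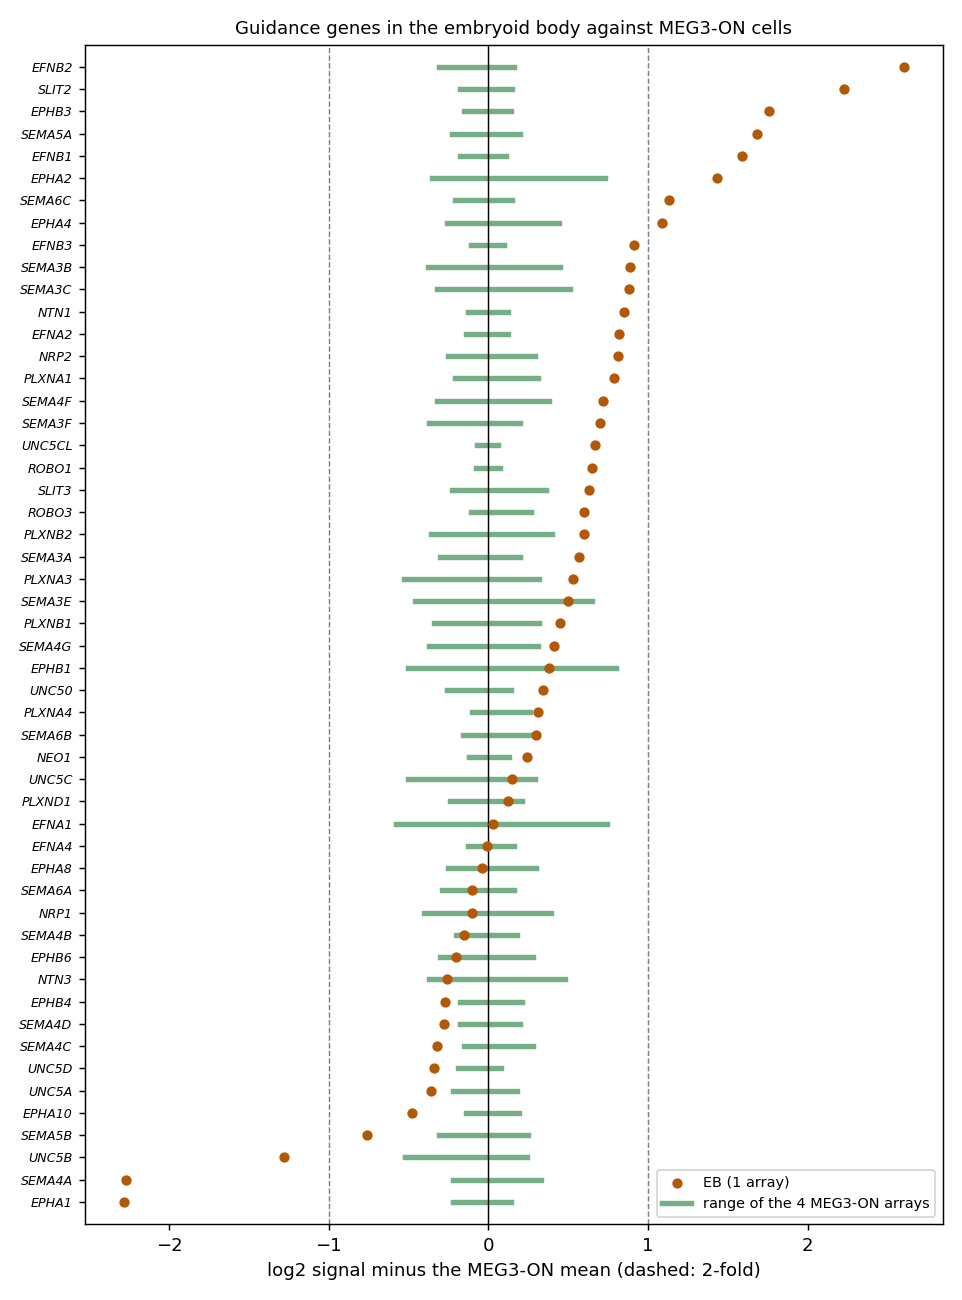
Log2 signal of 52 guidance genes in the EB (points, 1 array) as the difference to the MEG3-ON mean, with the range of the 4 MEG3-ON arrays as a green bar and 2-fold marked by dashed lines. EFNB2 lies at 2.60 and SLIT2 at 2.23, and SEMA4A and EPHA1 lie at -2.27 and -2.28.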

How the data were processed

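Total RNA of hESCs and 1 EB was hybridized as biotin-labeled cRNA to 12 Illumina HT-12 arrays by the authors, who deposited bead-summary signal intensities that were not normalized, a detection p-value for each probe, and a table of normalized intensity values made with Partek. The neqc function of limma 3.58.1 (R 4.3.3) inferred the background of each array from its detection p-values, subtracted it by normexp with an offset of 16, and returned quantile-normalized log2 signals of the 12 arrays. Of 47230 probes, 30113 had 1 gene symbol, 8 several and 17109 none in the platform annotation, and 30074 symbols were updated by Entrez ID. Each gene was represented by its probe with the highest mean over 12 arrays. A probe was detected at a detection p under 0.01, and the number of arrays limits the precision.

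MEG3-OFF and MEG3-ON arrays were compared by lmFit and eBayes in limma for genes detected on at least 4 of 9 arrays, and H9 and MEG3-OFF arrays in a 3-group fit of 11 arrays for genes detected on at least 2. P-values were adjusted by Benjamini-Hochberg over all genes tested. The fit was tested on simulated data. Genes named with values were those with an adjusted or unadjusted p under 0.05 or among the 6 largest differences between the sublines, up to 12 called per direction in H9, up to 10 per direction past 2-fold in the EB, the 10 brightest, and called genes of the lists. EFNA1 and EPHA2, the 2-probe genes, the uncalled marker genes and the examples of small differences were picked after their values were seen. The genes and lists were chosen with earlier results of these data known. Alternatives were no background correction, the deposited normalized table, normalization within a comparison, no filter, a detection p under 0.05, trended and robust eBayes, another choice of probe, the methods' t-test, another set of arrays in the fit, and leaving out each array.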

Additional observations from a re-analysis of the deposited data

Results flagged for a closer look

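Within MEG3-ON and MEG3-OFF, each of the 43 guidance genes tested was screened for 1 array far from the rest of its group by Dixon's ratio. Of the 86 groups screened, 6 held such an array, and chance flags about 5% of groups. EPHB1 was at 6.58 on MEG3-OFF 5, with the other arrays at 5.99 to 6.12. PLXNA4, a plexin, was at 6.37 on MEG3-ON 2 (others 6.01 to 6.05) and at 6.35 on MEG3-OFF 8 (others 5.95 to 6.05). ROBO3 was at 7.83 on MEG3-ON 4 (others 7.45 to 7.49). SEMA6A was at 12.49 on MEG3-OFF 5 (others 12.11 to 12.17). UNC5A was at 9.37 on MEG3-OFF 7 (others 8.93 to 8.99). Each stood above its group.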

How the results depend on the processing

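The sign of the difference was followed for the 11 guidance genes with an unadjusted p under 0.05 between the sublines. It was also followed for 16 genes called in H9 and for the genes past 2-fold in the EB. No alternative reversed the sign for any of these, and the other differences given were not followed. Between the sublines the 3 genes called lower were the same under 8 alternatives that kept all arrays of the comparison, and 0 guidance genes were called higher under any. The exception was the methods' t-test, under which 0 were called lower. Leaving out 1 array gave between 2 and 5 genes called lower and 0 higher, EPHA4 and EFNB2 being called each time. The count of 5, without MEG3-OFF 5, added SEMA5A (adjusted p = 0.0258, limma) and SLIT2 (adjusted p = 0.0443). Over its 18 alternatives the adjusted p of EPHA4 ran from 3.17e-05 to 0.0524, that of EFNB2 from 0.000689 to 0.0672 and that of SEMA3A from 0.0111 to 0.131.

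Between H9 and MEG3-OFF cells, the methods' t-test called 5 genes lower, against 19, and leaving out 1 array gave between 4 and 20 lower and between 1 and 4 higher. In the EB, 5 genes in place of 8 were past 2-fold higher both without background correction and in the deposited normalized table, and EPHA2, EPHB3 and SEMA6C were the 3 lost. In both settings 2 in place of 3 were past 2-fold lower, UNC5B being at -0.75 and -0.76. Leaving out 1 MEG3-ON array gave 8 or 9 higher and 3 lower. The deposited normalized table had column medians from 99.00 to 99.10 and, as log2, correlated with the raw log2 signals of each array at 0.9996 or more, so its values are linear signals that were not centred per gene.

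No paired analysis was possible because the groups compared (MEG3-ON 1 to 4, MEG3-OFF 5 to 9 and H9 1 and 2 against MEG3-OFF) share no replicate numbers. Signals near background limit EFNB1, SEMA4G, PLXNA3, NRP2, UNC5D, SEMA6C, EPHB6, UNC5B and SEMA5A, for which the values are bounds or rest on part of the arrays.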
